A study of Homo sapiens with 20 samples.

Results

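HIF1A binding under hypoxia was compared between HCT116, a line from a colorectal carcinoma, and H460, a line from a large cell carcinoma of the lung. The comparison used 2 of the 8 deposited HIF1A ChIP-seq peak lists, those of the cultures kept for 24 h at 1% O2, and took every peak of both. HCT116 contributed 3996 peaks and H460 3877, which makes 7873 of the 26484 peaks in the 8 lists. The whole series covers 4 cancer cell lines in normoxia and hypoxia, with 20 samples in all. Each of the 2 lists was called from 2 hypoxia replicates that had been merged, against 1 input library of genomic DNA from the same line, labelled as normoxic, so no value here carries a replicate error and a difference between the lists cannot be told apart from a difference between cultures, media or sonication, which were McCoy's 5A for HCT116 and RPMI for H460, with separate sonication settings. The same polyclonal antibody and crosslinking time were used for both. The merged libraries held 81.5 M tags in HCT116 and 49.5 M in H460, of which 0.196% and 0.423% lay in the called peaks. The fold over input that a peak had to reach was 7 in HCT116 and 14 in H460, values that the authors had chosen for each line from its immunoprecipitation efficiency.

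HIF1A is the subunit of hypoxia-inducible factor that is hydroxylated and degraded while oxygen is present. When oxygen is low it is stabilised, pairs with ARNT and binds the hypoxia response element, whose core reads ACGTG or GCGTG. Its best known targets encode glucose transporters, glycolytic enzymes, regulators of mitochondrial metabolism and angiogenic factors. Only a minority of the cores in the genome are bound, mostly in open chromatin, and the set of bound sites differs between cell types.

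The sequences below show the kinds of site on which the comparison turns. They are on the + strand of GRCh37, in lower case with every ACGTG or GCGTG core, on either strand, in capitals (a core on the opposite strand reads CACGT or CACGC). The first 3 are from peaks called in both lines that ranked among the 10 highest over both lists. The PDK1 and NDUFA4L2 stretches lie in untranslated exons and are cut to 29 bases around the core nearest the centre.
PDK1, both lines, chr2:173420789-173420817: cctgctgcccgcCACGTccctCACGTacc
SLC16A3, both lines, chr17:80188917-80189065: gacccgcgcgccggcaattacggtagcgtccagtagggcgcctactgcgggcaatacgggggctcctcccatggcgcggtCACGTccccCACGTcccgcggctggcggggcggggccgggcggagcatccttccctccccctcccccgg
PFKFB4, both lines, chr3:48594649-48594797: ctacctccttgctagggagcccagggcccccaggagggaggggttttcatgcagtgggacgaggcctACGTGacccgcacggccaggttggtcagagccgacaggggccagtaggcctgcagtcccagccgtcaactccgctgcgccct
The next 4 are from the strongest peaks called in HCT116 alone. They comprise the strongest of all, upstream of SLC2A1, a site 196 bp upstream of the LINC00511 gene start, a site on chromosome 13 in an intron of ENSG00000290807, and the UCA1 peak, which holds no core.
SLC2A1 upstream, HCT116 alone, chr1:43473264-43473412: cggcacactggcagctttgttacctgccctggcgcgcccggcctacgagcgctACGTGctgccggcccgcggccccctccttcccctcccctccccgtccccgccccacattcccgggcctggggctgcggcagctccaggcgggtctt
LINC00511, HCT116 alone, chr17:70636733-70636881: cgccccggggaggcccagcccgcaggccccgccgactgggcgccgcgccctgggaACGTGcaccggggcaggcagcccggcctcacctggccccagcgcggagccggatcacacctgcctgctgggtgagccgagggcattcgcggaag
Chromosome 13, HCT116 alone, chr13:111610078-111610226: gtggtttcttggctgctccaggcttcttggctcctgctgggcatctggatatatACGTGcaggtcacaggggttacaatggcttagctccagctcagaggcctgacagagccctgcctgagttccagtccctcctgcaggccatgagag
UCA1, HCT116 alone, chr19:15939471-15939619: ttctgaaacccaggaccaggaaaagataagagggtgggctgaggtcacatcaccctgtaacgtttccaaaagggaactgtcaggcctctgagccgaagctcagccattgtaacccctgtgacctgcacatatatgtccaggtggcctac
The last 2 are the strongest peaks called in H460 alone, which were also the strongest of the whole H460 list. The chromosome 13 and UCA1 peaks of HCT116 share a longer stretch with some H460 peaks, described further on.
NDUFA4L2, H460 alone, chr12:57628952-57628980: cgtggagcccgcCACGTcgcttggcactc
PPP1R3C, H460 alone, chr10:93393000-93393146: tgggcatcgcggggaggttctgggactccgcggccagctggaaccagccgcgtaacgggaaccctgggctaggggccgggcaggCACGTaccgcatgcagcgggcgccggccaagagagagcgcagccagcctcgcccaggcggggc

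About 1 peak in 5 of either line overlapped a peak of the other. By overlap of 1 bp or more, 809 of the 3996 HCT116 peaks (20.2%, Wilson 95% interval 19.0% to 21.5%) and 808 of the 3877 H460 peaks (20.8%, 19.6% to 22.1%) were shared, which gave 808 pairs and 7064 separate regions. The intervals cover counting error only, since peaks are not replicates of a condition. In 717 of the 808 pairs the peak centres lay within 50 bp of each other, with a median distance of 16 bp. Of the peaks without a partner, 64 in HCT116 and 74 in H460 lay within 500 bp of a peak of the other line. A peak missing from a list is one that was not called there: 1986 of the 3187 HCT116-only peaks (62.3%) had a fold over input under the 14 required in H460 and so did 49.8% of the shared ones, and tag coverage outside called peaks was not used here.

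Sharing followed peak strength in both lists. Strength is the normalized tag count, the tags in a peak per 10 M tags of the library, and each list was ranked by it and divided into deciles. In the lowest decile 3.06% of HCT116 peaks and 2.78% of H460 peaks were shared, and in the highest decile 74.9% (70.4% to 78.9%) and 62.1% (57.2% to 66.8%). A shared peak outranked a peak of the same list called in 1 line with a probability of 0.864 in HCT116 and 0.799 in H460. Ranked by fold over input instead, the probabilities were only 0.607 and 0.631. With a local fold of 6 required in both lists they were 0.735 and 0.821. The median shared peak held 6.75 tags per 10 M in HCT116 against 2.94 for the HCT116-only peaks, and 14.9 in H460 against 5.86 for the H460-only peaks.

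**Figure D1:**
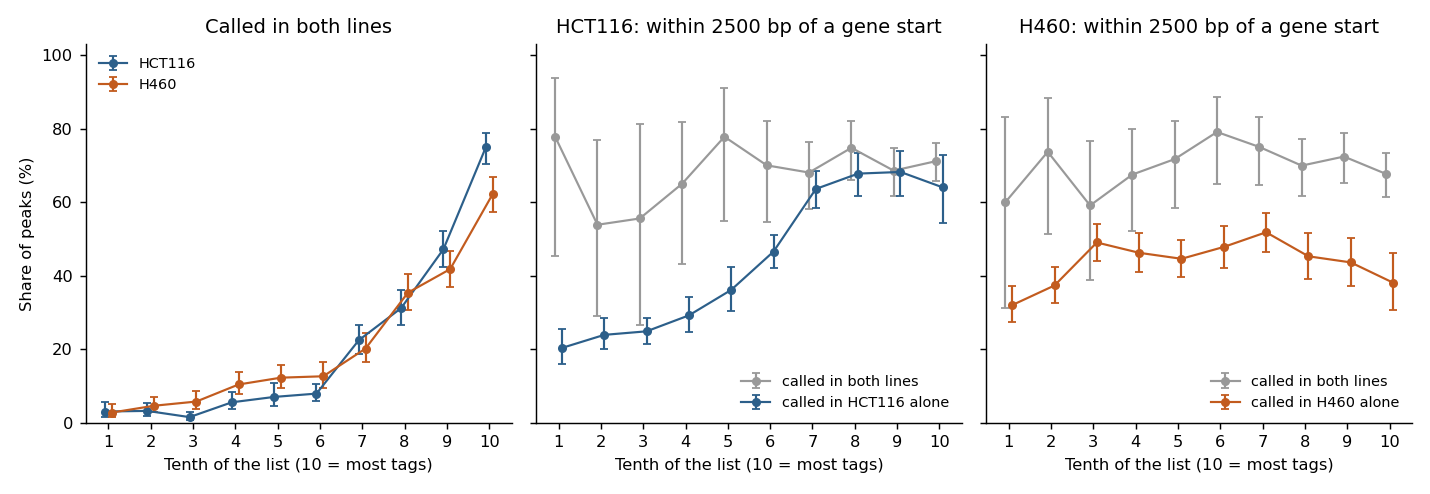
Shares of peaks by decile of each list, with the decile of most tags at the right; points are percentages and bars are Wilson 95% intervals. The left panel gives the share called in both lines, which reached 74.9% in HCT116 and 62.1% in H460, and the other panels give the share within 2500 bp of a gene start for shared peaks (grey) and for peaks called in 1 line (coloured), which in the top decile was 64.0% in HCT116 and 38.1% in H460.

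The order of the shared peaks was broadly alike in both lines. Spearman's rho of the normalized tag counts over the 808 pairs was 0.758, as a description across sites of 2 libraries, with 0.780 at the 569 promoter pairs and 0.712 at the 239 distal ones (a promoter peak has its centre within 2500 bp of a gene start). The percentile ranks of the 2 members differed by 7.86 points in the median pair, by at most 10 points in 459 pairs and by over 50 points in 26. Ranked by fold over input the same pairs gave a rho of only 0.233. In 196 pairs both members were in the top decile of their list.

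The 10 shared peaks with the best mean rank lay mostly at genes of glucose metabolism. ENO1, the glycolytic enolase, had the strongest peak of the HCT116 list, 92.4 tags per 10 M (Poisson 95% interval 85.9 to 99.2), and the peak at rank 10 in H460, 96.4. PDK1, the kinase that shuts pyruvate out of the mitochondrial citric acid cycle, held 69.4 in HCT116 and 110.4 in H460, ranks 6 and 4. SLC16A3, which encodes the lactate exporter MCT4, held 61.1 and 118.7, ranks 10 and 3, at a site 1117 bp from the nearest transcript start and 13181 bp into the gene. These 3 peaks and the one at RRP12 were within the first 10 of both lists.
PFKFB4, which makes the activator of phosphofructokinase, held 53.2 and 109.4. ALDOA, the aldolase, held 42.8 and 99.1. GPI, the glucose-6-phosphate isomerase, held 71.5 and 83.9 at a peak 104 bp upstream of its start. The RRP12 peak, 30 bp from the start of that ribosome biogenesis gene and 145 bp from the start of PGAM1, the phosphoglycerate mutase, held 83.8 and 97.7. The remaining 3 lay at NARF (82.5 and 87.3), FAM174B (70.4 and 91.2) and BNIP3L, a receptor for the removal of mitochondria (63.2 and 86.7). All 10 held at least 1 core, and every one held more tags per 10 M in H460.

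That last direction was general, so tags at shared peaks were compared against the median ratio. H460 had more tags per 10 M in 758 of the 808 pairs, with a median ratio of 2.02 (log2 ratio 1.02, 5th to 95th percentile −0.10 to 2.17). This ratio includes the efficiency of each immunoprecipitation and cannot be read as a difference in binding. Each pair was therefore tested with an exact conditional binomial test of its tags against the split that the median ratio gives, two-sided, with Benjamini-Hochberg adjustment over all 808 pairs. The test compares 2 merged libraries, not 2 cell types with replicates. It called 166 pairs (20.5%) higher in H460 than the median ratio and 132 (16.3%) higher in HCT116, and 510 pairs passed in neither direction. Without the peaks that had no input tag the counts were 96 and 110, so their order was not stable. Of the pairs higher in H460, 60.8% were at promoters, against 71.2% of those higher in HCT116 and 73.3% of the rest, and cores were in 92.8%, 95.5% and 92.0% of them.

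**Figure D2:**
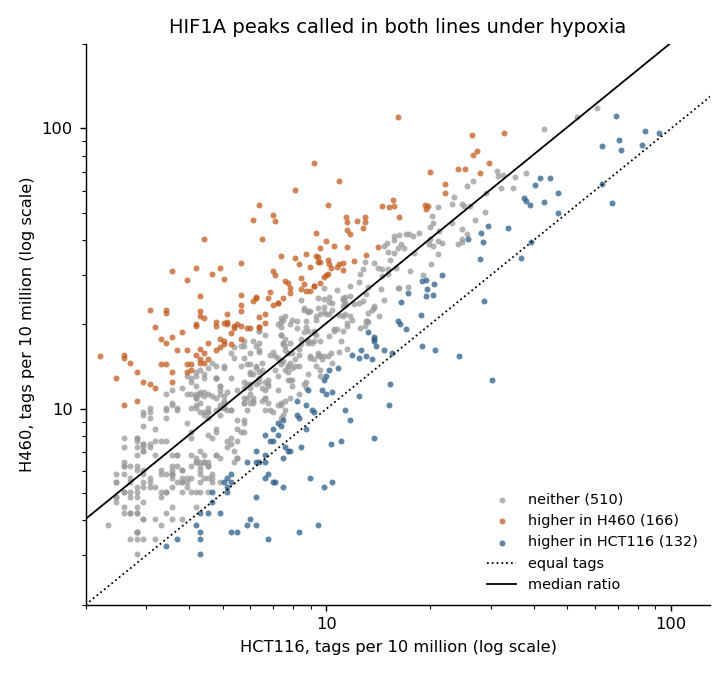
Normalized tag counts of the 808 shared pairs, HCT116 against H460, on log axes in tags per 10 M; the solid line is the median ratio of 2.02, the dotted line equality, and colours mark the 166 pairs higher in H460 and the 132 higher in HCT116 than the median ratio. Most pairs (758) lie above the dotted line.

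Several of the strongest glycolytic peaks were on the HCT116 side of the median ratio. ENO1 lay −0.95 from the median on the log2 scale (adjusted p = 3.7e-28, exact binomial), the RRP12 and PGAM1 peak −0.79 (6.1e-19), GPI −0.78 (6.1e-16) and LDHA, which turns pyruvate into lactate, −0.70 (9.0e-09). PFKFB4 at 0.02, SLC16A3 at −0.06 and ALDOA at 0.20 did not pass the exact binomial test (adjusted p = 0.90, 0.67 and 0.12). BNIP3L at −0.56 and PDK1 at −0.35 passed on the HCT116 side (5.6e-08 and 4.3e-04).

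The 5 largest departures in favour of H460 were sites with 3.56 to 9.2 tags per 10 M in HCT116. The ACOT6 peak, 112 bp from a transcript start of that acyl-CoA thioesterase gene, held 4.42 tags per 10 M in HCT116 and 40.2 in H460, 2.17 over the median on the log2 scale (adjusted p = 3.9e-20, exact binomial). A site 23547 bp downstream of the start of DDIT4, an inhibitor of mTORC1 signalling, held 3.56 and 30.9 (2.10 over the median), whereas the DDIT4 promoter peak, 18.9 and 28.5, lay −0.42 from the median (adjusted p = 0.040, exact binomial). The NOL3 peak, 210 bp into a gene for an inhibitor of apoptosis, held 9.2 and 75.2 (2.02), which put it at rank 20 of the H460 list and rank 350 of the HCT116 list. The other two were a site 58070 bp upstream of FTH1, the ferritin heavy chain gene (6.38 and 53.4), and one in LINC00511 (6.13 and 47.1), 48 bp from a transcript start of that gene, which also had a peak called in HCT116 alone 196 bp upstream of its gene start.
In favour of HCT116 the largest departure was at KIFC2, with 9.44 tags per 10 M in HCT116 and 3.84 in H460, −2.31 from the median (adjusted p = 4.2e-11, exact binomial). The IER3-AS1 peak, 84 bp upstream of FLOT1, was strong in HCT116, 30.3 against 12.7 in H460, −2.27 from the median, and dropped from rank 33 to rank 929. The others were in an intron on chromosome 15, 67374 bp upstream of SH3GL3 (8.34 and 3.64), in SCIRT (6.75 and 3.44) and at a non-coding exon on chromosome 17 (10.4 and 5.46). By percentile rank, the pairs that stood highest in H460 relative to HCT116 were at RPL10 on chromosome X (percentile 0.225 in HCT116 and 81.1 in H460), LINC00319, a site 14525 bp upstream of IRGC, CYP1B1-AS1 and FCHO2. Those that stood highest in HCT116 were at SH3GL3, SCIRT, KIFC2, EBAG9 (percentile 70.0 in HCT116 and 0.993 in H460) and STX18.

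Over whole lists the division between promoter and distal sites was similar. Promoter peaks made up 46.4% (44.9% to 47.9%) of the HCT116 list and 49.3% (47.7% to 50.8%) of the H460 list, a difference of −2.87 points (Newcombe 95% interval −5.07 to −0.661). The order of the lines turned with a local fold of 6 required in both lists (66.6% in HCT116 and 52.4% in H460) and with the top 2000 peaks of each (64.7% and 54.8%). Shared peaks were at promoters more often than the rest, 70.2% against 40.4% in HCT116 and 70.4% against 43.7% in H460. Distal peaks lay a median of 22128 bp from the nearest gene start in HCT116 and 23800 bp in H460.

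Strength separated the lines. Among HCT116-only peaks the promoter share climbed from 20.4% in the lowest decile to 64.0% in the top decile (64 of 100 peaks, 54.2% to 72.7%). Among H460-only peaks it was 32.0% in the lowest decile, highest at 51.8% in decile 7 and 38.1% in the top decile (56 of 147 peaks, 30.6% to 46.2%). In the top decile the HCT116-only share exceeded the H460-only share by 25.9 points (13.2 to 37.4). Shared peaks of the top decile were at promoters in 71.1% of cases in HCT116 and 67.6% in H460, so the strongest H460-only peaks were 29.5 points (19.4 to 38.9) below their shared counterparts and the strongest HCT116-only peaks 7.14 points (−3.12 to 18.0). The top-decile difference depended on the lists: with a fold of 14 required in both it was 4.15 points (−14.9 to 22.7), with a local fold of 6 in both 16.3 (−7.73 to 39.0) and with the top 2000 peaks of each list 15.6 (−4.57 to 34.2). With the lists as deposited and the fold of 14 asked only of the HCT116-only peaks of the top decile, 34 of 57 were at promoters and the difference was 21.6 points (6.30 to 35.5).
Base composition moved with this difference. The 200 bp at the centre had a mean GC content of 66.5% in the top-decile HCT116-only peaks and 54.6% in the H460-only ones, against 67.6% and 65.7% in shared peaks of the top decile, and its part in the result was not tested.

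The 10 strongest HCT116-only peaks ranged from 18.5 to 30.1 tags per 10 M. The first, 30.1 (26.4 to 34.1), was intergenic and 48774 bp upstream of SLC2A1, the gene of the glucose transporter GLUT1. H460 had a site of its own at the same gene, 3912 bp upstream of the start, with 44.3 tags per 10 M, while the SLC2A1 promoter itself was shared (14.7 and 24.5). LINC00511, a long non-coding RNA gene, had a peak of 28.1 at its promoter, and QSOX1, which encodes an enzyme that forms disulfide bonds in secreted proteins, one of 25.8 in an intron, 285437 bp from the nearest H460 peak.
Distances between peaks of the 2 lines are from centre to centre in this part and the next, and the peaks of HCT116 were 148 bp wide. TK1, the thymidine kinase gene, had a peak of 18.9 just 34 bp from its start and 150 bp from an H460 peak. The site between TUBD1 and VMP1 (19.1) and the one in an untranslated exon of ARHGDIA (20.0) also had an H460 peak close by, at 148 bp and 191 bp. The ARHGDIA peak held no core. By the TUBD1 site the HCT116 peak ended at position 57920591 and the H460 peak began at 57920592, so they abut without overlap. At ARHGDIA these positions were 79825733 and 79825777. Such peaks count as called in 1 line only because they do not overlap. The remaining peaks were an intergenic site on chromosome 1 (19.9), one by the lncRNA gene GASAL1 on chromosome 8 (18.9), the chromosome 13 site (18.8) and UCA1, a long non-coding RNA gene first described in bladder cancer (18.5, without a core). Of the 10, 5 lay at promoters and 8 held a core.

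Tag counts of the 2 lists cannot be compared directly, since the median ratio of 2.02 at shared peaks includes immunoprecipitation efficiency. The 10 strongest H460-only peaks ranged from 60.9 to 179.3 tags per 10 M. The strongest peak of the whole H460 list was among them: 179.3 (168 to 192) in an untranslated exon of NDUFA4L2, 1887 bp from a transcript start of that gene, 5517 bp from its gene start and 1564 bp from a transcript start of SHMT2, with 5 cores in its centre and no HCT116 peak within 195478 bp. NDUFA4L2 encodes a mitochondrial protein that lowers the activity of the respiratory chain. The second peak of the H460 list was also called in H460 alone, 122.7 (113 to 133) at 245 bp upstream of PPP1R3C, which brings protein phosphatase 1 to glycogen and promotes its synthesis. ADSS1, an enzyme of AMP synthesis, followed with 98.5 in an intron, 715 bp from a transcript start.
The next were in introns of CYP1B1, a cytochrome P450 gene (79.3), and RARA, a retinoic acid receptor gene (75), upstream of PDE10A (67.7) and in an intron of PPM1H (67.3). WDR74, a ribosome biogenesis gene, had a peak of 63.3 at 57 bp from its start, DUSP12 one of 62.7 at 13252 bp upstream, and SPAG4 one of 60.9 in a coding exon. All 10 held a core and 3 of 10 were at promoters. Only the CYP1B1 site had an HCT116 peak within 10000 bp, at 9294 bp.
Extended to the 100 strongest of each, the median distance to a gene start was 594 bp for HCT116-only and 8189 bp for H460-only peaks. Each peak called in 1 line was given its nearest protein-coding gene, out of 20163 such genes. In the top decile these were 79 genes in HCT116 and 100 in H460, and 4 were the same, ARHGDIA, PPP4R3B, SLC2A1 and TUBD1. At ARHGDIA, PPP4R3B and TUBD1 the nearest peaks of the 2 lines lay within 250 bp of each other. Over all peaks called in 1 line, 251 genes were the same, of 2100 in HCT116 and 1887 in H460. Whether these counts differ from those of genes drawn at random from the 20163 was not tested, so they are not read as few or many. Overlapping peaks are shared by definition, so these counts cover separate sites only.

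The hypoxia response core was more frequent in H460. It was in the central 200 bp of 76.9% (75.5% to 78.2%) of H460 peaks and 65.1% (63.6% to 66.6%) of HCT116 peaks, against 36.7% of windows of the same length at 38865 gene starts. Shared peaks held it in 93.3% of cases in HCT116 and 92.7% in H460, H460-only peaks in 72.7% and HCT116-only peaks in 58.0%, so the lists differed in their own peaks, by −14.7 points (−17.1 to −12.4). With a local fold of 6 in both lists the order turned, with 90.3% in HCT116 and 84.9% in H460. In the top decile 92.0% of HCT116-only and 95.9% of H460-only peaks held a core (difference −3.92 points, −11.3 to 2.06), and in the lowest decile 39.6% and 48.9%. Distal HCT116-only peaks held it in 46.2%, which was above the 22.3% of windows 2000 bp to either side.

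The core together with the letter in front of it differed as well. At the core nearest the centre, TACGTG was read in 51.1% (42.9% to 59.2%) of the top-decile H460-only peaks with a core, in 25.0% (17.3% to 34.7%) of the HCT116-only ones, and in 30.7% and 32.9% of shared peaks of the top decile in HCT116 and H460. The difference between the lines was 26.1 points (13.4 to 37.3). It was 28.1 points (10.6 to 43.6) at promoters and 18.4 points (−1.70 to 35.6) at distal sites, where only 32 HCT116-only peaks entered. Over the whole lists TACGTG was read in 23.8% of H460-only and 11.3% of HCT116-only peaks with a core. These shares also move with the core's own first letter. The nearest core was ACGTG, not GCGTG, in 80.9% of top-decile H460-only and 70.7% of top-decile HCT116-only peaks with a core. Over the whole lists it was ACGTG in 59.7% and 46.2%. With the top 2000 peaks of each list the top-decile difference was 14.4 points (−6.21 to 32.4), and with a fold of 14 in both lists 14.2 (−6.49 to 30.5). TACGTG was singled out after its values were seen.

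**Figure D3:**
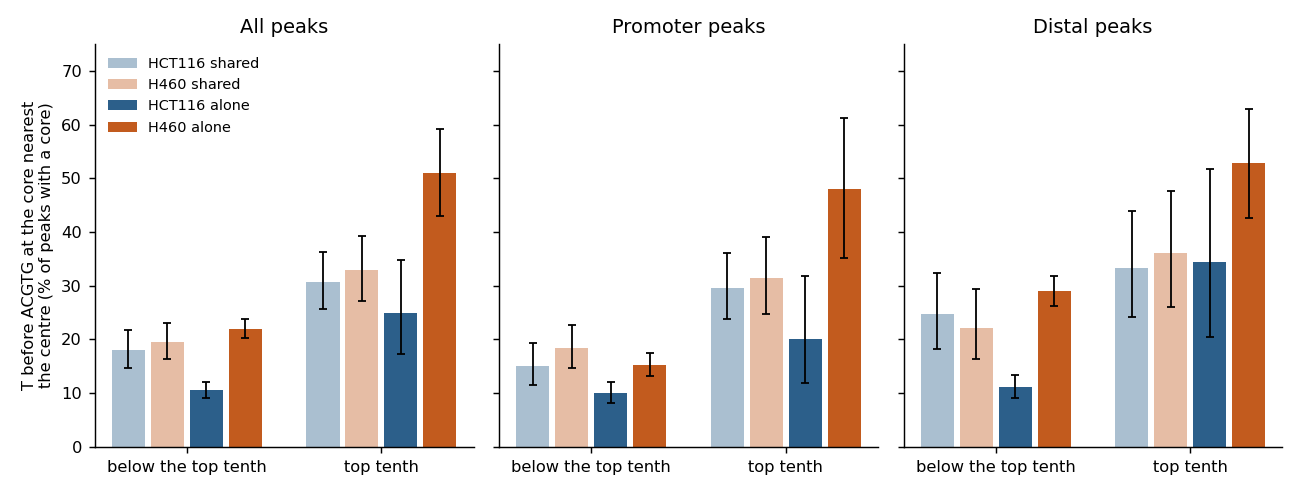
Share of peaks with a core whose core nearest the centre has T in front of ACGTG, in percent with Wilson 95% intervals, below and in the top decile of each list, for shared peaks (pale) and peaks called in 1 line (full colour), over all, promoter and distal peaks. In the top decile the H460-only bars stand highest, at 51.1% over all peaks against 25.0% for HCT116-only peaks.

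Distal peaks called in 1 line also differed in the motifs of other factors. TGANTCA, the site of AP-1, was in 20.5% of distal H460-only peaks and 11.9% of distal HCT116-only peaks, a difference of −8.60 points (HCT116 minus H460, −11.0 to −6.21), and in 25.5% of the distal shared peaks as H460 called them. TGTTTAC, read by forkhead factors, was in 6.13% and 1.47%, and GGAATGT, read by TEAD factors, in 5.96% and 2.47%. AGATAA, read by the GATA factors, was in 9.43% and 5.05%, but neighbouring windows held it in 11.7% and 10.8%. GGGCGG, the GC box, was in 13.4% and 16.4%, and CACGTG in 4.80% and 6.68%. For TGTGGTT, the RUNX site, and CCGGAAG, the ETS site, the intervals of the difference included 0 (0.57 points, −0.79 to 1.91, and 0.10 points, −0.91 to 1.11). These shares pool peaks of all strengths, and the lists had unlike fold thresholds. In the top decile TGANTCA was in 17.6% of 91 distal H460-only peaks and 22.2% of 36 distal HCT116-only peaks, so the order turned. There TGTGGTT was in 1.10% and 13.9%, TGTTTAC in 4.40% and 0%, and GGAATGT in 13.2% and 2.78%. At gene starts TGANTCA was in 5.32%, TGTTTAC in 2.08%, GGAATGT in 2.27%, AGATAA in 6.69%, GGGCGG in 33.0%, CACGTG in 4.90%, TGTGGTT in 2.79% and CCGGAAG in 7.12% of windows. Both strands were searched, CACGTG includes the ACGTG core, and the mean GC content of these distal windows was 49.5% in H460 and 56.3% in HCT116.

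A longer stretch recurred among the sites called in 1 line. The most frequent run of 16 letters among H460-only peaks was cccctgtgacctgcac, which stood in 30 of the 3069 (0.978%), in 9 HCT116-only peaks and in 2 shared pairs. The run belongs to LTR7, the long terminal repeat of the endogenous retrovirus family HERV-H, by its known consensus, as no repeat annotation was used here. It has 934 copies in the chromosomes of GRCh37, of which 3.43% lay in an H460 peak and 1.18% in an HCT116 peak. It was in none of the 7754 windows beside the H460 peaks and in 1 of the 38865 gene starts. Where the next letters are "gt", the run completes the core CACGT. They were "gt" in 27 of the 30 H460-only peaks and in 5 of the 9 HCT116-only peaks, and "at" in 2 and 4.
The H460-only peaks with the run held 3.24 to 79.3 tags per 10 M, and 9 of the 147 in the top decile carried it. The strongest were at CYP1B1 (79.3), where the next letters were "gc", PPM1H (67.3) and 22526 bp from IL6 (52.6). In HCT116 the strongest were the chromosome 13 site (18.8) and a pair of peaks at UCA1 and LINC01764 (18.5 and 13.9), both of the latter with "at" and without a core. The run accounted for 8 of the 72 top-decile H460-only peaks with TACGTG. Without run-bearing peaks that share was 48.5%, and it was 24.2% in HCT116. The corresponding run of HCT116, aatcccagcactttgg, is part of the Alu repeat. It stood in 71 HCT116-only peaks (2.23%), in 11 H460-only peaks (0.358%) and in no shared peak, against 4.15% and 4.29% of the neighbouring windows, and the median of these HCT116 peaks was 2.7 tags per 10 M, at percentile 24.7. Both runs were found by searching these peaks, so their counts are descriptions.

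At the level of genes, 2597 of 38865 (6.68%) had an HCT116 peak within 2500 bp of the start, 2651 (6.82%) an H460 peak and 950 (2.44%) both. The 950 were 36.6% of the HCT116 genes and 35.8% of the H460 genes. The 69 genes of 8 lists of known hypoxia functions stand against these shares, and the lists were drawn from known HIF targets: 30 had peaks of both lines, 3 of HCT116 alone, 9 of H460 alone and 27 of neither. Counting every transcript start these became 38, 2, 11 and 18. The values given for single genes below are those of the strongest peak within 2500 bp of any transcript start.

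Most glycolytic genes had peaks of both lines. Of 18 glycolytic enzyme genes, 12 had a peak of both lines at the gene start, 1 of HCT116 alone and 5 of neither, and by transcript starts 15, 0 and 1, with 2 of H460 alone. Hexokinase 2 (HK2) held 21.0 tags per 10 M in HCT116 and 39.8 in H460 and TPI1, triosephosphate isomerase, 11.3 and 25.1. PGK1, phosphoglycerate kinase, held 14.5 and 53.0, 0.85 over the median ratio (adjusted p = 5.5e-07, exact binomial), and PKM, pyruvate kinase, 20.0 and 69.8, 0.79 over it (6.8e-08). ALDOC lay 0.70 over it (6.7e-04), whereas PFKL and ENO2 lay −0.72 and −0.62 from it (8.8e-04 and 0.0089). Genes of 1 pathway thus departed from the median in both directions. HK1 (15.2) and PFKFB3 (15.6) were called in H460 alone.

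Of 7 genes for glucose and lactate transport and pH, 1 had peaks of both lines at the gene start, 1 of HCT116 alone, 2 of H460 alone and 3 of neither. For 9 genes of HIF subunits and oxygen sensing the counts were 1, 1, 2 and 5. By transcript starts, which the genes named here follow, they were 2, 0, 4 and 1 for the first list and 1, 2, 3 and 3 for the second. CA9, the carbonic anhydrase that is a clinical marker of hypoxia, had an H460 peak 24 bp from its start with 23.7 tags per 10 M and no HCT116 peak. CA12 (3.44), SLC16A1 (9.10) and SLC2A3 (4.85) also had H460 peaks alone, at percentiles 6.86, 64.5 and 27.9 of the list. Of the 3 prolyl hydroxylases that mark HIF1A for decay, EGLN1 was shared (40.4 and 62.7, −0.38 from the median, adjusted p = 0.0044, exact binomial). EGLN2 (3.64, at percentile 11.3 of the list) and EGLN3 (9.50) were called in H460 alone. HIF1AN, the asparaginyl hydroxylase, had a peak of 20.8 in H460, and HIF3A and EPAS1 had peaks of 6.87 and 2.70 in HCT116. The EPAS1 value stands at percentile 24.7 of that list.
At gene starts both lines had peaks at 3 of 7 genes of the pyruvate and respiratory chain list, 1 of 6 collagen hydroxylases and lysyl oxidases, 3 of 7 angiogenic and secreted factors, 6 of 8 stress, mitophagy and repressor genes and 3 of 7 demethylases and hydroxylases of the JmjC family. Neither line had one at 3, 4, 4, 1 and 2 of them. By transcript starts both lines had peaks at 3, 2, 3, 7 and 5 genes of these lists, and neither line at 3, 4, 4, 1 and 1. In the pyruvate and respiratory chain list PDK1, PDK3 (10.2 and 18.2) and LONP1 (24.7 and 39.4) were in both, and NDUFA4L2 in H460. P4HA1 (37.3 and 56.4) and P4HA2 (20.5 and 27.9), which hydroxylate collagen, lay −0.42 and −0.57 from the median (adjusted p = 0.0026 and 0.0031, exact binomial). The angiogenic and secreted factors VEGFA (4.42 and 6.47), ANGPTL4 (7.97 and 15.8) and STC2 (26.1 and 52.8) did not pass the test. BNIP3, a mitophagy receptor, held 32.7 and 96.0 (0.54, 9.0e-06), and MXI1, a MYC antagonist, 22.1 and 58.8 (0.40, 0.013). Among histone demethylases KDM3A (28.8 and 50.5), KDM4B (29.4 and 44.9, −0.40, 0.011) and KDM4C (14.5 and 29.7) were shared and KDM5C (21.4) was in H460 alone. Of 13 genes that mark lung epithelium only NKX2-1 had a peak, in H460 (3.84, percentile 15.0).

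**Figure D4:**
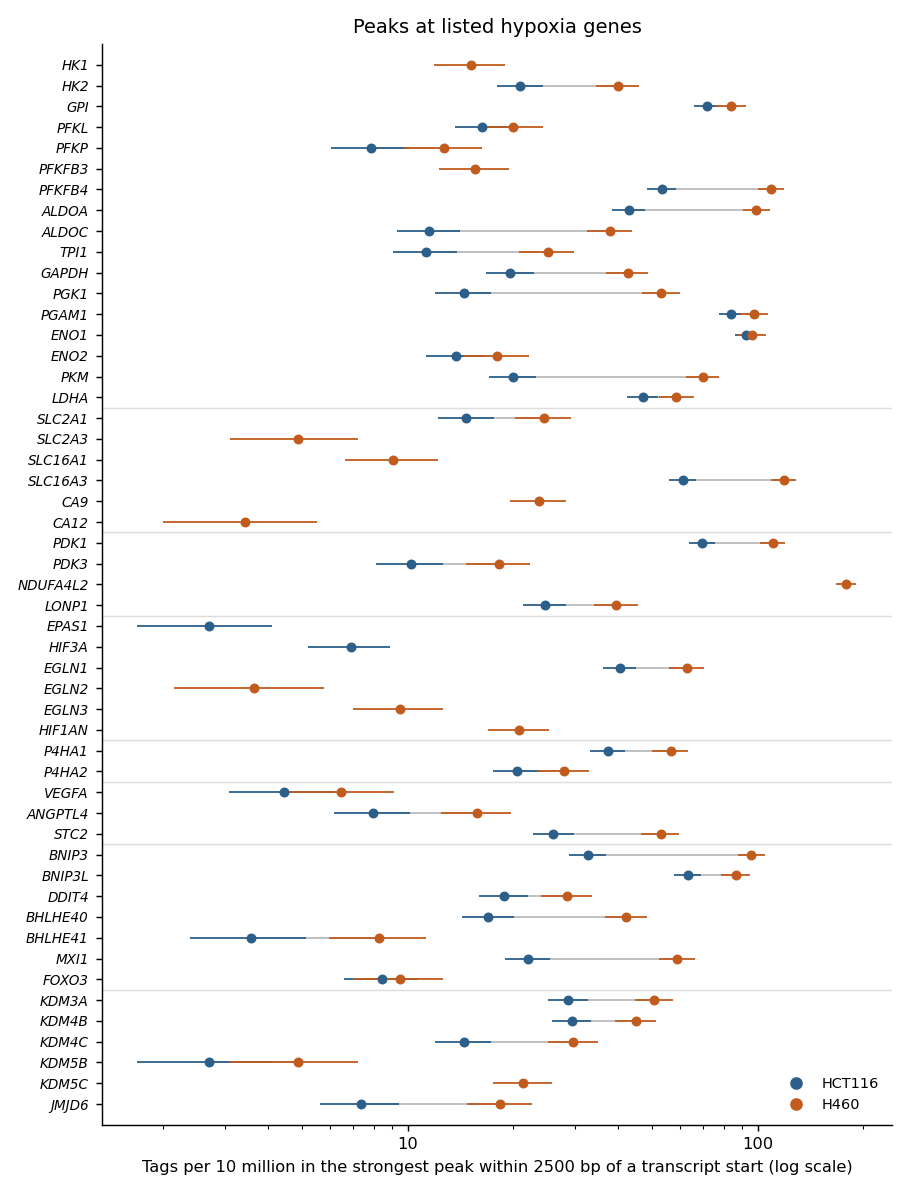
Normalized tag count of the strongest peak within 2500 bp of any transcript start of the listed hypoxia genes, on a log axis, in HCT116 (blue) and H460 (orange), with Poisson 95% intervals; grey lines join the lines of a gene and horizontal rules part the lists. At GAPDH, BHLHE41, FOXO3 and KDM5B the strongest peak was at a different site in each line. NDUFA4L2 at 179.3 in H460 has no HCT116 point, and the ENO1 points nearly coincide.

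The peaks called in 1 line were spread unevenly over the chromosomes. Chromosome 8 held 248 HCT116-only and 130 H460-only peaks, 7.78% and 4.24% of each set. Chromosome X held 9 and 87, chromosome 20 held 38 and 92, chromosome 15 held 55 and 104, chromosome 13 held 28 and 58, and chromosome 21 held 16 and 38. Of the 28 HCT116 peaks on chromosome X 67.9% were shared, and the median log2 ratio of its 19 shared pairs was 1.56, against 1.02 over all pairs and 0.59 over the 26 pairs of chromosome 8. Chromosomes 6, 19 and 4 had median log2 ratios of 0.65, 0.67 and 0.67, near that of chromosome 8. The number of input tags per peak averaged 1.05 on chromosome 8 and 0.64 on chromosome X in HCT116, and 0.70 and 0.63 in H460. In HCT116 it was 1.43 on chromosome 17 and 1.34 on chromosome 22. These means cover called peaks only, which had to pass a fold over input, and count 0.5 where no input tag was present. They therefore cannot serve as a measure of copy number. Copy number of the chromosomes was not measured here, and its part in these counts was not tested.

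**Figure D5:**
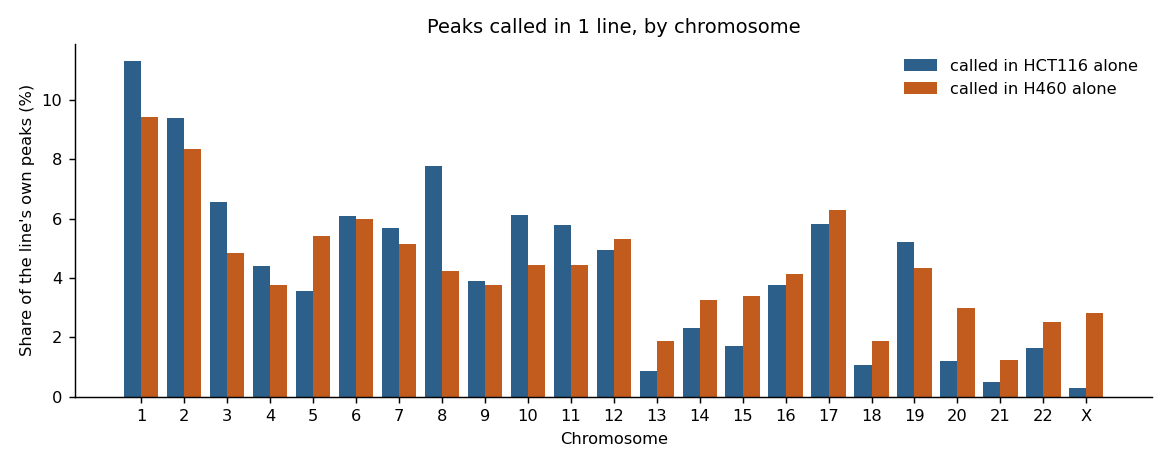
Peaks called in 1 line by chromosome, as a percentage of the HCT116-only (blue) and H460-only (orange) peaks; chromosome Y is left out. HCT116-only bars stand above on chromosome 8 (7.78% against 4.24%), and H460-only bars on chromosome X (0.28% and 2.83%).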

How the data were processed

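HIF1A ChIP-seq of hypoxic HCT116 and H460 cells was analysed from the peak lists. The authors aligned reads to GRCh37 (hg19) with Bowtie2 2.2.9 and handled alignments with SAMtools and Picard. The deposited record gives these as 1.3.1 and 1.129, whereas the paper gives later versions of both for its ChIP-seq data. Replicates 1 and 2 of each line were merged. Peaks were called with HOMER 4.3 findPeaks against the input of the line, which the labels give as normoxic. The deposited signal is the normalized tag count (tags per 10 M). The deposited fold change over input is a ratio of scaled tags, required by the authors to reach 7 in HCT116 and 14 in H460, with a local fold of 3, a false discovery rate of 0.001 and a p-value of 0.001 over input. The deposited local fold was treated as a score. An input value of 0.5 stands for no input tag, as in 27.0% of HCT116 and 45.6% of H460 peaks. The weakest peaks held 17 and 13 tags.

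Peaks were matched by 1 bp of overlap and ranked within their list. Unscaled tags, the signal times the library total, were tested pair by pair with an exact conditional binomial test (scipy 1.17.1), which was tested on simulated data. Those data were drawn from the binomial model that the test assumes, so they cannot show how it behaves with variation between libraries. Gene starts came from GENCODE 44 as lifted to GRCh37 and covered 38865 genes, coding or lncRNA. Intervals are Wilson, Newcombe or Poisson at 95% and cover counting error only. Named peaks were the 10 shared peaks of best mean rank, the 10 strongest of each line called there alone, the 5 shared pairs furthest apart by rank and by ratio in each direction, and listed genes with a peak. Members, lists and tests were chosen with earlier results of these data known. Peak lists of the other lines and conditions were only counted. The colon marker list and the sequences of some named peaks are not reported here.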

Additional observations from a re-analysis of the deposited data

How the results depend on the processing

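No paired analysis was possible because the replicates were merged before peak calling, and for the same reason no replicate could be left out. Of the values that answer a comparison, 41 stayed within their interval, or within 1.5 times for counts, under an alternative and 43 did not. Requiring a fold of 14 in both lists changed the shared share to 25.3% of HCT116 and 10.5% of H460 peaks, rho to 0.805, the pairs called to 98 higher in H460 and 75 higher in HCT116, the HCT116 promoter and core shares to 48.4% and 68.4%, and the top-decile promoter difference to 4.15 points. A local fold of 6 gave 48.8% of HCT116 peaks shared, a rho of 0.726, promoter shares of 66.6% in HCT116 and 52.4% in H460, and core shares of 90.3% and 84.9%, so that the order of the lines turned for both shares, the cause of which was not tested. The top 2000 peaks gave 32.3% shared in either line, a rho of 0.697, promoter shares of 64.7% and 54.8%, where the order also turned, and core shares of 83.9% and 89.2%. Without peaks lacking an input tag, 18.0% and 24.9% were shared, promoter shares were 48.9% and 54.1%, core shares 68.0% and 85.2%, and 96 pairs were higher in H460 and 110 in HCT116, which turned the order of these counts. Counting peaks within 500 bp as shared gave 21.8% and 22.8%. Promoter shares of HCT116 and H460 were 40.8% and 42.1% within a shorter distance, 1 kb, 51.9% and 54.6% within 5000 bp, 57.6% and 60.0% over every transcript start, and 39.8% and 41.6% over protein-coding starts, an alternative chosen after seeing the data. A 100 bp window gave core shares of 53.0% and 67.1%. Ranking by fold over input gave a rho of 0.233. An expected split from the library totals called 586 pairs higher in H460 and 10 in HCT116, by construction, since it leaves the median ratio in.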
